A study of Mus musculus with 8 samples.

Results

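The 10 *Cacna1* genes encode the alpha1 subunits of the voltage-gated calcium channels, and all of them were found by gene symbol among the 49585 genes of the table made by alignment to the C57BL/6J ('B') genome. Their RNA was measured by RNA-seq in whole brains from newborn female F1 hybrids of a C57BL/6J mother and a CAST/EiJ father. The dams drank water with 0 ppm CdCl2 (4 pups) or 50 ppm CdCl2 (4 pups) from 5 weeks before mating until birth, and each pup came from a different litter. Both dose groups carry the same hybrid genotype, and a library represents the whole brain of 1 pup at postnatal day 1, without separation of regions or cell types.

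The alpha1 subunit forms the pore of the channel, senses the membrane voltage and lets Ca2+ into the cell when the membrane depolarizes. The CaV1 or L-type channels couple electrical activity to contraction and to gene expression, the CaV2 channels (P/Q-, N- and R-type) trigger the release of neurotransmitter at nerve terminals, and the CaV3 or T-type channels open near the resting potential and shape rhythmic firing. Cd ions are a classic blocker of the CaV1 and CaV2 pores, and these channels are also known as a route by which Cd can enter cells. The auxiliary beta, alpha2delta and gamma subunits modify the trafficking and gating of the pore.

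The 8 libraries held 22916434 to 30708087 reads counted on genes. Values are given as CPM, which scale the reads of a gene to a common library size after TMM normalization, and a count of 0 allows up to 3 reads, or 0.0980 to 0.132 CPM in these libraries (counting error only). No pair of brains of the same dose had counts as alike as 1 library read again, since chi-square over its degrees of freedom was 8.67 to 21.1. Neuron markers were abundant, led by *Map2* at a mean of 1855 CPM, while *Tubb3* was listed at 0 in all 8 libraries. A pair of libraries stood apart. The summed CPM of 9 brainstem and spinal cord markers was 12.5 in 0 ppm replicate 1 and 14.2 in 0 ppm replicate 2, 60.1 and 69.0 in the other two control brains, and 58.4 to 174.7 in the exposed brains. The summed CPM of 8 forebrain markers was 920.9 and 907.1 in the same pair and 575.6 to 803.8 in the other 6 libraries. Results are therefore also given without this pair, an alternative chosen after seeing the data. In RNA from a whole brain, fewer cells of a type and less RNA per cell cannot be told apart.

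To compare genes with each other, CPM were divided by the length of the exons of the gene in kb (union of all annotated exons). Reads of these hybrids were aligned to the C57BL/6J genome alone, and any loss of reads from the CAST/EiJ allele was not measured. Such a loss could differ between genes yet be alike in all 8 brains. The order of the genes and the class shares below carry this limit. Of the 10 genes, 8 were clearly expressed, each with 935 to 6132 reads in every brain. The highest level per kb was that of *Cacna1b*, which encodes the N-type channel CaV2.2, with 18.7 ± 1.72 CPM per kb (SD, n = 8 brains). *Cacna1g* (T-type, CaV3.1) followed with 10.9 ± 1.77 CPM per kb, and *Cacna1h* (T-type, CaV3.2) with 10.8 ± 1.39 CPM per kb. The level of *Cacna1a* (P/Q-type, CaV2.1) was 8.98 ± 0.736 CPM per kb, and that of *Cacna1e* (R-type, CaV2.3) was 7.07 ± 0.963 CPM per kb. The levels of *Cacna1c* and *Cacna1d*, the L-type channels CaV1.2 and CaV1.3 of neurons, were 5.65 ± 0.364 and 4.97 ± 0.395 CPM per kb, and *Cacna1i* (T-type, CaV3.3) had 4.34 ± 0.589 CPM per kb.

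*Cacna1b* was above each other alpha1 gene in all 8 brains, and its lowest value (15.6 CPM per kb) lay above the highest value of *Cacna1g* (13.3 CPM per kb). The order of *Cacna1g* and *Cacna1h* could not be told from these brains, since each was higher in 4 of 8. From *Cacna1h* down to *Cacna1i* the ranges of neighbours overlapped. The gene with the higher mean was nevertheless the higher one in 8 of 8 brains for *Cacna1h* over *Cacna1a*, *Cacna1a* over *Cacna1e*, and *Cacna1c* over *Cacna1d*, and in 7 of 8 for *Cacna1e* over *Cacna1c* and *Cacna1d* over *Cacna1i*. Dividing by the longest annotated transcript instead placed *Cacna1a* (12.9 CPM per kb) above *Cacna1h* (12.8 CPM per kb). With that length *Cacna1e* rose from 7.07 to 11.95 and *Cacna1c* from 5.65 to 9.09 CPM per kb, because their annotated exons sum to 25228 and 21191 bases but their longest transcripts to 14921 and 13162 bases.

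The other two genes had few reads. *Cacna1s* encodes CaV1.1, the voltage sensor of skeletal muscle, and had 37, 19, 33 and 32 reads in the 0 ppm brains and 33, 35, 18 and 23 reads in the 50 ppm brains. This corresponds to 0.159 ± 0.0370 CPM per kb, and 19.99% of its exon length overlaps *Gm37759* on the opposite strand. *Cacna1f*, the CaV1.4 channel of photoreceptors, had 1, 3, 6 and 0 reads at 0 ppm and 2, 3, 2 and 1 reads at 50 ppm, so that 7 of 8 brains were at or under the 3 reads that a count of 0 allows. Reads of *Cacna1f* were thus counted in every brain except 0 ppm replicate 4. They were too few to measure its level at this depth, and no fold change is given for it.

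**Figure D1:**
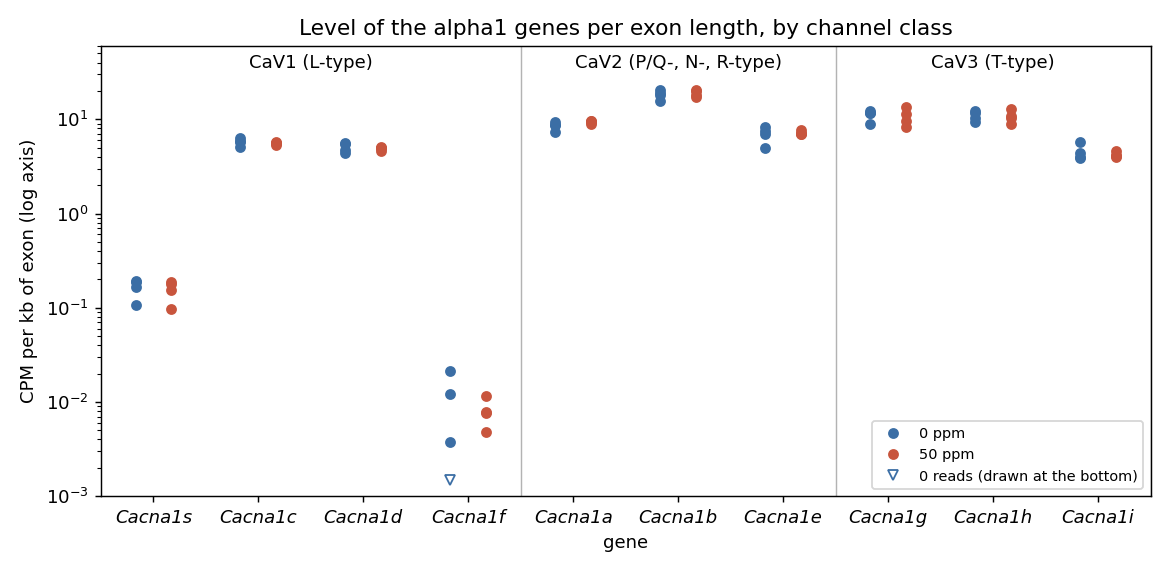
Level of the 10 alpha1 genes (CPM per kb of exon, log axis) in each of the 8 libraries, grouped by channel class and coloured by maternal Cd dose; the open triangle marks the library with 0 reads of *Cacna1f*. *Cacna1b* lies highest, and *Cacna1s* and *Cacna1f* lie far below the other 8 genes.

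Summed per kb over the 10 genes, the CaV2 genes made up 48.6% ± 1.76 (SD, n = 8) of alpha1 RNA, the CaV3 genes 36.3% ± 1.95 and the CaV1 genes 15.2% ± 1.38. *Cacna1b* alone took 26.1% ± 0.840. The share of the CaV2 genes was 46.1% to 49.1% in the 0 ppm brains and 47.4% to 50.5% in the 50 ppm brains, so that the doses overlapped. The share of the CaV3 genes was 36.4% to 37.7% at 0 ppm and spread wider at 50 ppm, from 32.9% to 39.0%. For the CaV1 genes the shares were 14.0% to 17.5% and 13.6% to 16.6%. With the longest transcript as the length, the CaV1 share was 17.6% and the CaV3 share 33.6%, and the order of the classes was kept. The sum over the 10 genes was 71.2 ± 7.97 CPM per kb at 0 ppm and 71.8 ± 5.63 CPM per kb at 50 ppm (SD, n = 4 each).

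The promoters of 7 of the 10 genes could be matched in the RefSeq table of the GRCm38.p6 build, which gives 250 bases before to 50 bases after each start, for 10 starts in all; *Cacna1a*, *Cacna1g* and *Cacna1h* were not matched. The following sequences are the promoters of the most abundant alpha1 gene and of the 2 genes with few reads, 5′ to 3′ on the strand of the gene, with each CG dinucleotide in capitals. They lie at chr2:24763103-24763402 (minus strand, *Cacna1b*), chr1:136052561-136052860 (plus strand, *Cacna1s*) and chrX:7606853-7607152 (plus strand, *Cacna1f*).
Cacna1b: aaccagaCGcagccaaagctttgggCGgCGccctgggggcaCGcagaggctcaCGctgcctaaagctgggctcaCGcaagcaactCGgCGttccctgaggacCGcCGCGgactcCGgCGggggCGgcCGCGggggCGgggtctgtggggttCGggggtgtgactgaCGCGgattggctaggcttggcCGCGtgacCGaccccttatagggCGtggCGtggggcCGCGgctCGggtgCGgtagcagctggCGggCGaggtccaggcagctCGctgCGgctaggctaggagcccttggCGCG
Cacna1s: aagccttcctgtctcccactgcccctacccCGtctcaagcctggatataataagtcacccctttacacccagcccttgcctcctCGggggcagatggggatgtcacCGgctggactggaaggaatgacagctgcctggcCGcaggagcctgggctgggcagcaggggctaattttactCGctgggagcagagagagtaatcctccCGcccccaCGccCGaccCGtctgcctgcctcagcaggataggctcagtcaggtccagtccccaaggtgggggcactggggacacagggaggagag
Cacna1f: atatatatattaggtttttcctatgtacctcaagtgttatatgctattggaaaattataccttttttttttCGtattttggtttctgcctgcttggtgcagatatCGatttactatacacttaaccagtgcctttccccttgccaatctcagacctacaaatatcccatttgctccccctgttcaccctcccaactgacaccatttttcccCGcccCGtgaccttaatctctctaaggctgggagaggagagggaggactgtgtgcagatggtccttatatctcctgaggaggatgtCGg

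The *Cacna1b* promoter held 35 CG dinucleotides, more than 93.0% of the 32851 promoters of the table, whose median was 7. The *Cacna1s* promoter held 9 and the *Cacna1f* promoter 5. Over the matched starts, the genes in between did not follow the number of CG dinucleotides, as the *Cacna1e* promoter held 11 and the *Cacna1i* promoter 23. The matched *Cacna1e* start (chr1:154725871-154726170, minus strand) lies inside the gene, which spans 154390731 to 154884501. A start at the 5′ end of *Cacna1e* was therefore not covered. *Cacna1c* and *Cacna1d* each had a start with many (57 and 63) and others with few (7 and 3 for *Cacna1c*, 4 for *Cacna1d*), and gene counts do not tell which start was used. The core of the metal response element, to which the metal-sensing factor MTF1 binds, was searched as TGCACNC or TGCGCNC on both strands. The latter spelling contains a CG dinucleotide. The core in either spelling was found in 3 of the 10 promoters, namely 1 of the 2 of *Cacna1d* and those of *Cacna1f* and *Cacna1i*, against 25.7% of all promoters.

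To find out whether alpha1 genes responded to maternal Cd, the 50 ppm brains were compared with the 0 ppm brains. None of the 10 genes passed an adjusted p of 0.05 in the edgeR quasi-likelihood fit over the 23113 genes tested, of which 4 passed (0.0173%). None of the 10 had an unadjusted p under 0.05 either, compared with 3.75% of all genes tested. DESeq2 and limma-voom also called none of the 10, and neither gave any of them an unadjusted p under 0.05. In none of the 10 genes were the 2 dose groups free of overlap. Of all genes tested, 2.09% had groups without overlap (1.19% with every exposed brain higher and 0.904% with every exposed brain lower). With so small a share, overlap in all 10 does not set the alpha1 genes apart. All 10 genes passed the filter on low counts. Of the log2 fold changes of the 9 genes other than *Cacna1f*, 3 were positive and 6 negative with a median of -0.03, while the median of all genes tested was -0.0033.

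Among the CaV2 genes of nerve terminals, *Cacna1a* had the smallest p-value of the 10 genes. Its levels were 100.1, 84.6, 99.6 and 107.4 CPM in the 0 ppm brains, and 109.6, 108.0, 109.8 and 101.5 CPM in the 50 ppm brains. In 3 of the 4 exposed brains it was higher than in each control brain, and 50 ppm replicate 4 lay within the range of the controls. The means were 97.9 ± 9.59 and 107.2 ± 3.89 CPM (SD, n = 4). On the log2 scale the fold change was 0.13 (standard error 0.08, 95% interval -0.03 to 0.29, adjusted p = 0.999 from edgeR). Without 0 ppm replicate 2, in which it was lowest, the log2 fold change was 0.07, and without 0 ppm replicate 4 it was 0.18 with an unadjusted p of 0.0469 from edgeR, at an adjusted p of 1.00. *Cacna1a* spans 84388440 to 84640246 of chromosome 8 (GRCm38), and *Gm16183* on the opposite strand covers 3.81% of its exon length.

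*Cacna1b* (chromosome 2, 24603887 to 24763152) had 189.8, 155.3, 181.9 and 202.2 CPM in the 0 ppm brains, and 204.4, 200.1, 181.0 and 169.9 CPM in the 50 ppm brains. The groups overlapped over most of their range, and the means were 182.3 ± 19.8 and 188.8 ± 16.2 CPM (SD, n = 4). The log2 fold change of *Cacna1b* was 0.05 (95% interval -0.12 to 0.23). *Cacna1e* (chromosome 1, 154390731 to 154884501) had 209.3, 125.6, 176.1 and 187.9 CPM in the 0 ppm brains, and 181.7, 176.0, 194.6 and 175.5 CPM in the 50 ppm brains. The control brains held both the highest and the lowest value of *Cacna1e*, and the exposed brains lay close together between them. Its log2 fold change was 0.06 (95% interval -0.17 to 0.29), and without 0 ppm replicate 2 it turned to -0.070. That of *Cacna1b* turned to -0.018 without the same library.

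The neuronal L-type genes differed little between brains. *Cacna1c* (chromosome 6, 118587240 to 119196418) had 134.2, 122.8, 108.3 and 123.3 CPM in the 0 ppm brains, and 117.7, 113.0, 120.2 and 117.9 CPM in the 50 ppm brains. The exposed brains all lay within the range of the controls, and the log2 fold change was -0.06 (95% interval -0.21 to 0.09). It was -0.012 without 0 ppm replicate 1 and -0.11 without 0 ppm replicate 3. *Cacna1d* (chromosome 14, 30039939 to 30491455) had 68.8, 59.9, 55.3 and 69.9 CPM in the 0 ppm brains, and 62.4, 58.4, 62.5 and 64.5 CPM in the 50 ppm brains, again within the range of the controls. Its log2 fold change was -0.03 (95% interval -0.21 to 0.14), and 4.67% of its exon length overlaps *Chdh* on the opposite strand. It was 0.0071 without 0 ppm replicate 1 and 0.015 without 0 ppm replicate 4. For *Cacna1s*, at 1.07 ± 0.257 CPM and 1.01 ± 0.261 CPM (SD, n = 4), the log2 fold change of -0.08 had an interval of -0.67 to 0.50, so that a change of up to 41.2% upwards or 37.0% downwards lay within its error. It was 0.0052 without 0 ppm replicate 1 and 0.091 without 50 ppm replicate 3.

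The T-type genes included *Cacna1g*, the most variable of the 8 abundant genes. *Cacna1g* (chromosome 11, 94408391 to 94474198) had 119.1, 89.9, 116.9 and 123.2 CPM in the 0 ppm brains, and 135.2, 116.0, 96.9 and 83.5 CPM in the 50 ppm brains. The highest and the lowest brain were both exposed ones, and the means of 112.3 ± 15.2 and 107.9 ± 22.6 CPM (SD, n = 4) gave a log2 fold change of -0.06 (95% interval -0.31 to 0.20). *Cacna1h* (chromosome 17, 25374285 to 25433783) showed the same extremes, with 114.3, 90.5, 99.6 and 120.2 CPM in the 0 ppm brains, and 125.7, 100.9, 105.2 and 87.8 CPM in the 50 ppm brains. Its log2 fold change was -0.02 (95% interval -0.23 to 0.20), and 1.62% of its exon length overlaps *Tpsg1* on the opposite strand. Without 50 ppm replicate 4 the log2 fold changes of *Cacna1g* and *Cacna1h* were 0.047 and 0.059, and that of *Cacna1h* was also positive without 0 ppm replicate 1 (0.022), 0 ppm replicate 4 (0.049) or 50 ppm replicate 2 (0.0021). *Cacna1i* (chromosome 15, 80287238 to 80398279) had 56.1, 39.0, 38.4 and 43.3 CPM in the 0 ppm brains, and 45.0, 40.4, 39.1 and 41.2 CPM in the 50 ppm brains. A single control brain, 0 ppm replicate 1, was far above the rest. The log2 fold change was -0.09 (95% interval -0.32 to 0.13) and turned to 0.043 without that library.

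**Figure D2:**
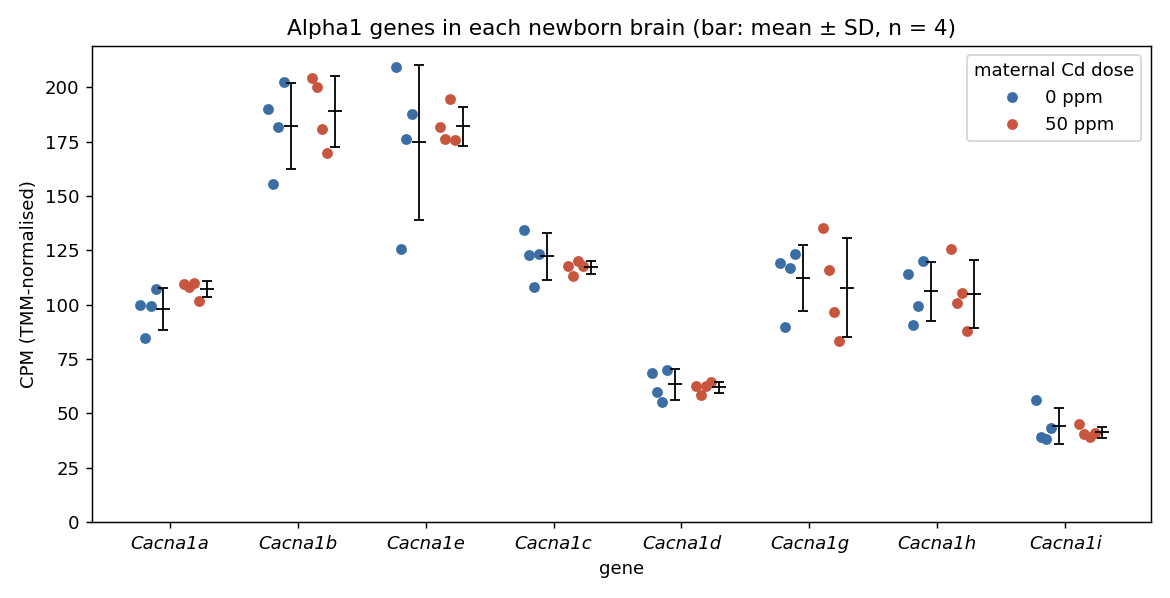
CPM of the 8 abundant alpha1 genes in each library, with 0 ppm in blue and 50 ppm in red; the black bar beside each group is the mean ± SD (n = 4). The groups overlap for every gene, and the spread at 50 ppm is widest for *Cacna1g* (83.5 to 135.2 CPM).

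For the 8 abundant genes the 95% intervals of the change together ran from 19.6% lower to 22.4% higher at 50 ppm, which bounds the change in each gene that these 8 brains leave within the error. Without 0 ppm replicates 1 and 2 together, none of the 10 genes was called, and the log2 fold changes of the 9 genes given one ran from -0.19 for *Cacna1s* to 0.05 for *Cacna1a*, with a lowest unadjusted p of 0.222 from edgeR.

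The coefficient of variation over the 8 brains was 6.44% for *Cacna1c*, 7.96% for *Cacna1d*, 8.19% for *Cacna1a* and 9.24% for *Cacna1b*. It was 12.9% for *Cacna1h*, 13.6% for *Cacna1e* and *Cacna1i* and 16.3% for *Cacna1g*, compared with a median of 8.15% over the 10330 genes with a mean of at least 10 CPM. *Cacna1a*, *Cacna1b* and *Cacna1e* were lowest in 0 ppm replicate 2, by 0.27, 0.25 and 0.49 log2 units below their mean over the 8 libraries. *Cacna1c*, *Cacna1d* and *Cacna1i* were lowest in 0 ppm replicate 3. The summed forebrain markers were also lowest in that library, at 575.6 CPM, whose part in these values was not tested. *Cacna1g* and *Cacna1h* were lowest in 50 ppm replicate 4 and highest in 50 ppm replicate 1.

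As a description, the log2 CPM of *Cacna1g* and *Cacna1h* had a Pearson correlation of 0.870 over the 8 libraries, and *Cacna1b* and *Cacna1g* one of 0.865. The L-type pair *Cacna1c* and *Cacna1d* had 0.815, and *Cacna1c* and *Cacna1i* had 0.760, while *Cacna1a* and *Cacna1c* had -0.189. These points share their library, depth and normalization. Among 14601 other genes with a mean of at least 1 CPM, those with the most similar pattern by the same measure were *Ttll8* and *Kcnk4* for *Cacna1a*, *Fbxl2* and *Man2c1* for *Cacna1b*, *Kpna6* and *Gfod1* for *Cacna1c*, and *Gm20400* and *Ankrd44* for *Cacna1d*. For *Cacna1e* they were *Agtpbp1* and *Grm7*, for *Cacna1g* *AI413582* and *Pnpla6*, for *Cacna1h* *1190007I07Rik* and *Map6d1*, for *Cacna1i* *Chordc1* and *Sox18*, and for *Cacna1s* *Fgd2* and *5930409G06Rik*. Their correlations lay between 0.953 and 0.984. They are the highest of 14601 values for each gene, and no test was made of them.

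**Figure D3:**
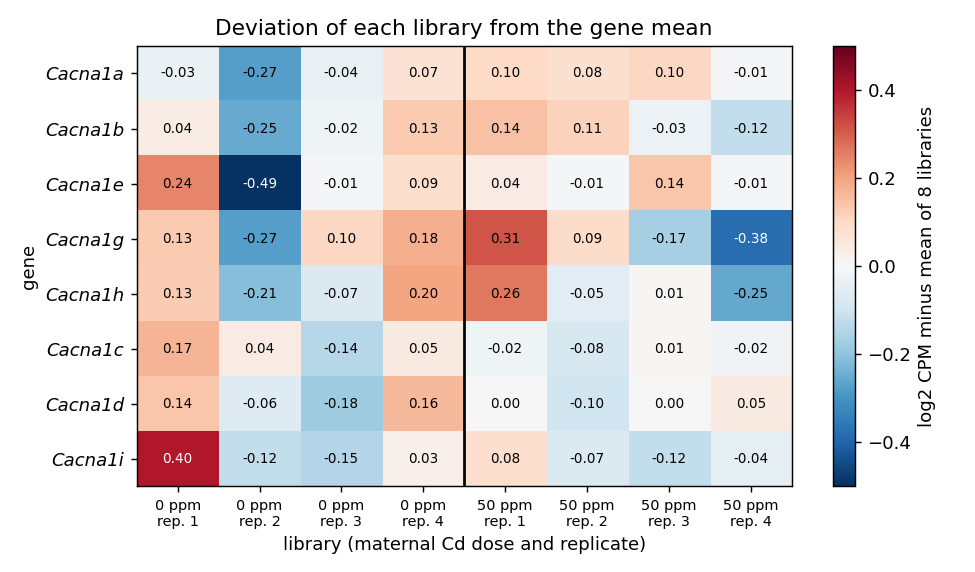
Deviation of log2 CPM of each library from the mean of the gene over the 8 libraries (colour and number), with the 0 ppm libraries left of the black line and the 50 ppm libraries right of it. 0 ppm replicate 2 is low for *Cacna1a*, *Cacna1b*, *Cacna1e*, *Cacna1g* and *Cacna1h*, and no gene separates the doses.

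The genes of the auxiliary subunits were examined as the other parts of the channel complex. All 16 were tested, and with all 8 libraries none passed an adjusted or an unadjusted p of 0.05 in edgeR, DESeq2 or limma-voom, with 6 positive and 10 negative log2 fold changes. Leaving out 0 ppm replicates 1 and 2 gave 1 alpha2delta gene an unadjusted p under 0.05 from edgeR, beside 4.28% of all genes tested. Leaving out 50 ppm replicate 2 gave 1 beta subunit gene such a p, beside 3.78%. Both were lower at 50 ppm, and neither passed the adjusted threshold. The beta subunits are cytoplasmic partners that carry CaV1 and CaV2 channels to the membrane. *Cacnb3* had 158.9 ± 22.1 CPM at 0 ppm and 147.6 ± 23.0 CPM at 50 ppm, *Cacnb1* 104.7 ± 5.79 and 96.0 ± 8.32, *Cacnb4* 55.5 ± 5.04 and 57.5 ± 4.55, and *Cacnb2* 22.4 ± 1.55 and 22.4 ± 2.95 (SD, n = 4). Of the beta subunit genes, *Cacnb1* had the log2 fold change farthest from 0, at -0.12 (95% interval -0.28 to 0.03), and 15.99% of the exon length of *Cacnb4* and 7.32% of that of *Cacnb2* overlap genes on the opposite strand.

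The alpha2delta subunits are extracellular proteins that raise the number of channels at the membrane, and gabapentin binds to those encoded by *Cacna2d1* and *Cacna2d2*. *Cacna2d1* had 215.1 ± 8.53 CPM at 0 ppm and 217.8 ± 25.8 CPM at 50 ppm (SD, n = 4), *Cacna2d2* had 115.7 ± 28.0 and 123.9 ± 8.82 CPM, and *Cacna2d3* had 80.5 ± 9.65 and 80.3 ± 6.05 CPM. *Cacna2d4*, which is known from the retina, had 1.04 ± 0.283 and 1.17 ± 0.324 CPM. The log2 fold changes of these 4 genes lay between -0.0035 for *Cacna2d3* and 0.18 for *Cacna2d4*.

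The gamma family holds *Cacng1*, a subunit of the skeletal muscle channel, its relative *Cacng6*, and genes whose products mainly accompany AMPA-type glutamate receptors. In *Cacng4* the 4 exposed brains lay below the 4 control brains, with 282.4 ± 8.36 CPM at 0 ppm and 260.3 ± 9.71 CPM at 50 ppm (SD, n = 4). Its log2 fold change was -0.12 (95% interval -0.25 to 0.01, unadjusted p = 0.0728 and adjusted p = 0.999 from edgeR). *Cacng7* also had all exposed brains below the controls, at 103.8 ± 0.792 and 97.9 ± 6.89 CPM, with a log2 fold change of -0.08 (95% interval -0.23 to 0.06). These were 2 of the 16 auxiliary genes, where 0.904% of all genes tested had the exposed brains all below. *Cacng2*, the gene of stargazin, had 90.5 ± 5.30 and 87.7 ± 4.55 CPM, *Cacng8* 30.1 ± 3.68 and 27.9 ± 1.861 CPM, *Cacng3* 27.3 ± 3.29 and 26.8 ± 1.68 CPM, and *Cacng5* 19.0 ± 1.10 and 20.2 ± 0.272 CPM. *Cacng1* had 32 to 58 reads and *Cacng6* 5 to 21 reads per brain. Their log2 fold changes were 0.15 (95% interval -0.41 to 0.71) and -0.61 (95% interval -1.58 to 0.36).

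**Figure D4:**
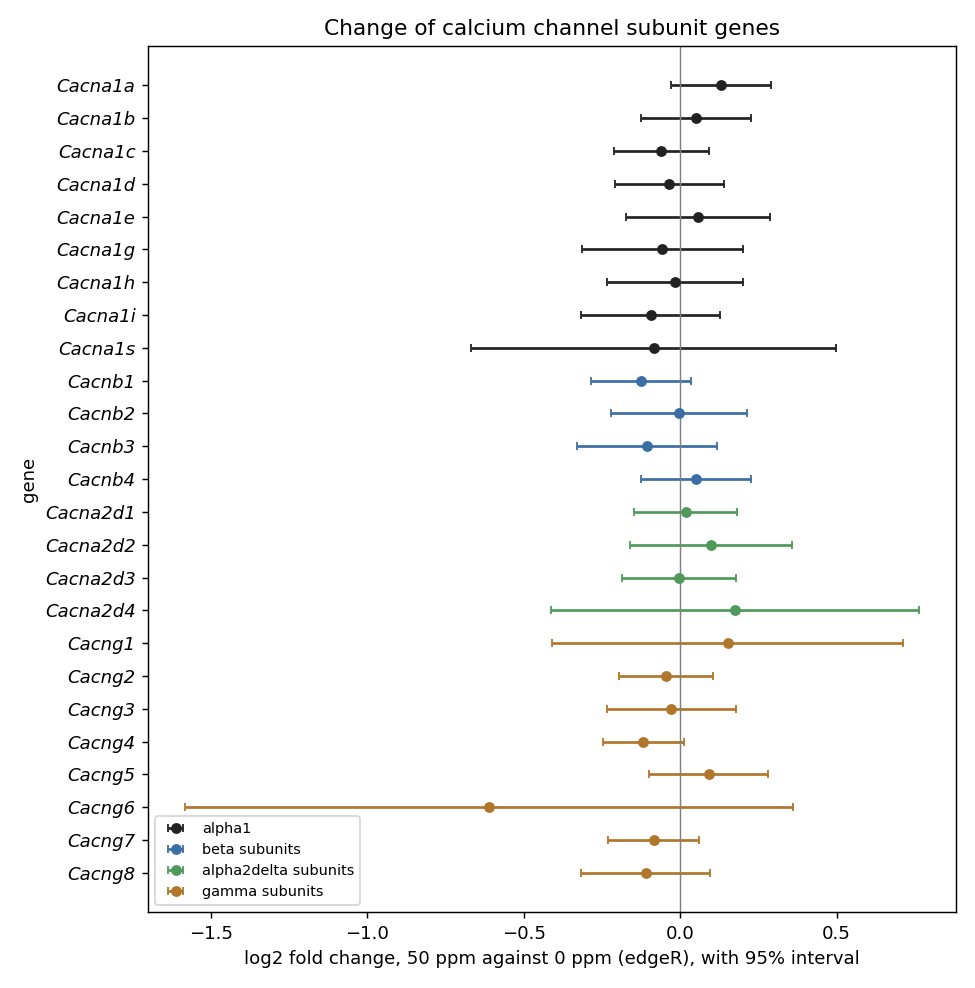
Log2 fold change at 50 ppm against 0 ppm from edgeR with its 95% interval for 9 alpha1 genes and the 16 auxiliary subunit genes, coloured by subunit. Every interval includes 0, and the widest are those of the low-count genes *Cacng6*, *Cacna2d4*, *Cacna1s* and *Cacng1*.

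Genes that act with the channels were tested from lists. Of 4 genes of the NALCN sodium leak channel, a relative of the alpha1 family, none passed, and *Unc80*, which anchors that channel, had an unadjusted p of 0.0166 with 47.4 ± 7.32 CPM at 0 ppm and 56.5 ± 2.75 CPM at 50 ppm (SD, n = 4, adjusted p = 0.999 from edgeR). Its control values were 39.9 and 42.4 CPM in 0 ppm replicates 1 and 2 and 53.9 and 53.5 CPM in the other control brains, beside 53.8 to 60.4 CPM in the exposed brains. Without replicates 1 and 2 its log2 fold change fell from 0.25 to 0.07 (unadjusted p = 0.451 from edgeR). None of 9 regulators passed. Among them *Cabp1*, a calmodulin-like protein that binds L-type and P/Q-type channels, had 21.1 ± 3.18 and 25.8 ± 3.75 CPM (log2 fold change 0.29, unadjusted and adjusted p = 0.0271 and 0.999 from edgeR). Without the same pair of libraries that of *Cabp1* was 0.24 (unadjusted p = 0.0799 from edgeR). In that fit 2 of the 9 regulators had an unadjusted p under 0.05, both lower at 50 ppm, beside 4.28% of all genes tested. None of 12 presynaptic partners had an unadjusted p under 0.05, and *Syt1*, the Ca2+ sensor of transmitter release, was the most abundant at a mean of 473.3 CPM. Of 21 genes of Ca2+ release, uptake and extrusion none passed. *Itpr2*, an IP3 receptor, had 19.1 ± 1.92 and 22.8 ± 3.09 CPM (log2 fold change 0.26, unadjusted p = 0.0316, adjusted p = 0.999 from edgeR, and 0.18 with an unadjusted p of 0.187 without the pair), and the endoplasmic reticulum pump *Atp2a2* led the list at a mean of 651.8 CPM. None of 8 activity-regulated genes, some of which L-type channels are known to induce, had an unadjusted p under 0.05, and *Egr1* was the most abundant at 15.8 CPM. Leaving out the same pair gave 1 of 8 with such a p from edgeR, higher at 50 ppm, beside 4.28% of all genes tested. With all 8 libraries the medians of the log2 fold changes of these 5 lists lay between -0.0045 and 0.07.

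Markers of cells known for single alpha1 genes were set beside them. For *Cacna1s*, the summed CPM of 12 skeletal muscle markers was 19.3 to 22.2 at 0 ppm and 17.7 to 20.7 at 50 ppm, led by *Neb* at 6.86 CPM, and none of the 12 passed. *Ckm* (0 to 11 reads) and *Mylpf* (3 to 9 reads) were near 0, while the embryonic and perinatal myosins *Myh3* (55 to 80 reads) and *Myh8* (35 to 72 reads), *Acta1* (47 to 96 reads) and *Actn3* (67 to 117 reads) were detected in every brain. For *Cacna1f*, the 8 photoreceptor and retina markers summed to 8.94 CPM in 0 ppm replicate 1, 3.53 to 3.76 CPM in the other control brains and 2.47 to 3.55 CPM at 50 ppm. In this list *Crx* had an unadjusted p of 0.0033 with 1.12 ± 0.993 and 0.340 ± 0.0983 CPM (SD, n = 4, adjusted p = 0.831 from edgeR). It had 2.56 CPM in 0 ppm replicate 1 and 0.310 to 0.930 CPM in the other controls, and its log2 fold change went from -1.71 to -0.90 without that library and to -0.56 (unadjusted p = 0.257 from edgeR) without replicates 1 and 2 of 0 ppm. Smooth muscle cells use *Cacna1c*, and 5 of their markers summed to 9.91 to 19.9 CPM at 0 ppm and 17.5 to 26.4 CPM at 50 ppm, led by *Acta2* at 8.97 CPM. None had an unadjusted p under 0.05 from edgeR with all 8 libraries. Leaving out 0 ppm replicates 1 and 2 gave 3 of 5 with such a p, all higher at 50 ppm. This compares with 4.28% of all genes tested in that fit, and none of the 5 passed the adjusted threshold.

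Of 6 Purkinje cell markers, which go with *Cacna1a* and *Cacna1g* in the mature cerebellum, 2 had an unadjusted p under 0.05, among them *Car8* (log2 fold change 0.37, unadjusted p = 0.0088 and adjusted p = 0.999 from edgeR), and none passed, beside 3.75% of all genes tested with such a p. Without 0 ppm replicates 1 and 2 it was 1 of 6, *Car8*, beside 4.28% of all genes tested. The list summed to 94.9 to 134.5 CPM at 0 ppm and 132.7 to 161.1 CPM at 50 ppm. Among 5 thalamus markers, which go with *Cacna1g* and *Cacna1i*, *Prox1* had 66.1 ± 4.99 and 53.3 ± 6.58 CPM (unadjusted p = 0.0027, adjusted p = 0.789 from edgeR), and *Tcf7l2* led at 157.4 CPM. The log2 fold change of *Prox1* was -0.31, and -0.40 without 0 ppm replicates 1 and 2 (unadjusted p = 0.0006, adjusted p = 0.357 from edgeR). In that fit 3 of the 5 thalamus markers had an unadjusted p under 0.05, all lower at 50 ppm, beside 4.28% of all genes tested. None of the 5 passed. The list summed to 243.9 to 385.2 CPM at 0 ppm and 227.0 to 326.9 CPM at 50 ppm. None of the 7 neuron markers tested had an unadjusted p under 0.05, and their sum was 4504 to 4978 CPM at 0 ppm and 4750 to 5008 CPM at 50 ppm. In the astrocyte list 3 of 5 and in the oligodendrocyte lineage list 2 of 6 genes had an unadjusted p under 0.05, all higher at 50 ppm and none past the adjusted threshold, again beside 3.75% of all genes tested. These counts were the same without 0 ppm replicates 1 and 2, beside 4.28% of all genes tested in that fit. *Aqp4* passed without 0 ppm replicate 3 (adjusted p = 0.0046 from edgeR) and *Mbp* without 50 ppm replicate 3 (adjusted p = 0.0092 from edgeR). Among them were *Aqp4* (85.7 ± 24.2 and 140.4 ± 19.2 CPM, SD, n = 4), *Gja1* and *Gfap* for astrocytes, and the myelin gene *Mbp* (56.4 ± 3.79 and 79.1 ± 13.4 CPM). The sums were 556.5 to 731.0 CPM at 0 ppm and 727.0 to 868.4 CPM at 50 ppm for astrocytes, and 333.7 to 364.4 and 330.2 to 422.3 CPM for the oligodendrocyte lineage. In the forebrain list 3 of 8 genes had an unadjusted p under 0.05, all lower at 50 ppm, among them *Dlx5* and *Dlx2*, beside 3.75% of all genes tested. Without 0 ppm replicates 1 and 2 it was 3 lower and 2 higher, beside 4.28%. In the brainstem and spinal cord list 7 of 9 had an unadjusted p under 0.05 with all 8 libraries, all higher, beside 3.75% of all genes tested. Among them were *Hoxb5*, *Slc5a7* and *Hoxb3*, and *Hoxb8* passed with an adjusted p of 4.66e-06 from edgeR. Without 0 ppm replicates 1 and 2, whose sums of 12.5 and 14.2 CPM lay far below the others, it was 4 of 9, beside 4.28% of all genes tested. It was 3 of 9, beside 3.9%, without 50 ppm replicate 1, whose sum of 174.7 CPM was the highest. The pair was singled out by the sums of these 2 lists, and 50 ppm replicate 1 by its sum here. The lower counts without them therefore cannot tell how firm the rise was. With any other single library left out it was 5 to 8 of 9, beside 3.2% to 5.08% of all genes tested. *Hoxb8* passed in each of these fits. The part of these markers in the values of the alpha1 genes was not tested.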

How the data were processed

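RNA-seq of 8 newborn female brains (4 at 0 ppm, 4 at 50 ppm) was analysed. The authors trimmed the first 10 bases, aligned reads with STAR to the C57BL/6J genome (GRCm38, Ensembl version 87), ran htseq-count per gene and deposited raw counts without normalization; tool versions and the strand setting are not given in the sources used here. The table for the CAST/EiJ genome was not used here, as its identifiers are not paired with gene names. Groups came from the labelled treatment. A gene was left out where over 2/3 of libraries had a count of 0. Counts were TMM-normalized and fitted with edgeR 4.0.16 (glmQLFit, glmQLFTest, R 4.3.3) on treatment alone, with Benjamini-Hochberg adjustment over all genes tested at a threshold of 0.05. Intervals used the standard error (log2 fold change over the square root of F) and the t distribution of the fit. Names and GRCm38 positions came from GENCODE M21, a later release than the authors used. Log2 CPM for pattern likeness used a prior count of 2. Alternatives were DESeq2 1.42.0, its size factors, library size alone, 2 other filters and limma-voom (limma 3.58.1) with sample quality weights, which count noisier libraries less. Each library was also left out in turn, and 0 ppm replicates 1 and 2 were left out together. Code was tested on simulated counts with 200 changed genes. Members and the 19 lists were chosen with earlier results of these data known. The 10 alpha1 genes and 16 auxiliary genes are named, and from other lists the most abundant gene or up to 4 with the smallest unadjusted p under 0.05, and the 2 genes most like each alpha1 gene of at least 1 CPM; *Tubb3* and the muscle genes other than *Neb* were named after their values were seen. Some single genes are not reported here. Figures used matplotlib 3.10.9.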

Additional observations from a re-analysis of the deposited data

Results flagged for a closer look

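Within the groups of 4 brains, 26 genes of calcium channel subunits were examined in 52 groups for a brain that lay far from the other 3 (Dixon's criterion at 95%), which chance alone flags in about 1 of 20 groups. There were 3 such values, none of them in an alpha1 gene and all among the 50 ppm brains. *Cacnb2* had 26.8 CPM in 50 ppm replicate 4 against 20.6 to 21.3 CPM in the other exposed brains. *Cacng7* had 87.6 CPM in the same library against 100.7 to 102.0 CPM. *Cacng6* had 0.527 CPM in 50 ppm replicate 2 against 0.246 to 0.265 CPM, at a depth of 5 to 21 reads per brain.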

How the results depend on the processing

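None of the 10 alpha1 genes and none of the 16 auxiliary genes was called under any of the 15 alternatives, whose lowest adjusted p among alpha1 genes was 0.936. Over all genes, 4 calls became 22 with DESeq2, 52 without a filter, 2 with a minimum of 10 counts in 4 or more libraries, 1 with limma-voom, 7 without 0 ppm replicates 1 and 2, and 2 to 20 with 1 library left out, with the highest number without 0 ppm replicate 3. In 119 of 135 refits of the 9 fold changes the sign was kept, and in 16 it turned, with no call on either side. Over the refits lacking 1 library, log2 fold changes ran from -0.018 to 0.10 for *Cacna1b*, -0.10 to 0.015 for *Cacna1d*, -0.070 to 0.16 for *Cacna1e*, -0.18 to 0.047 for *Cacna1g*, -0.11 to 0.059 for *Cacna1h*, -0.16 to 0.043 for *Cacna1i* and -0.24 to 0.091 for *Cacna1s*. Without 0 ppm replicates 1 and 2 it turned to -0.027 for *Cacna1b*, 0.014 for *Cacna1c*, -0.0031 for *Cacna1e* and 0.018 for *Cacna1i*. The longest transcript as length gave shares of 17.6% for CaV1 and 33.6% for CaV3, and with 1 library left out the shares stayed within 14.8% to 15.4% and 35.9% to 36.8%. No paired analysis was possible because the labels give no replicate number that ties a 0 ppm brain to a 50 ppm brain. Depth limits *Cacna1f* and *Cacna1s*.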
